A study of Capra hircus with 2 samples.

Results

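The 7 genes RGS5, HIGD1B, ADAMTS4, AVPR1A, SNCG, RASL11A and RGS16, among the 27137 features of the count matrix, were examined as a set of pericyte genes led by RGS5. The cells of interest were chosen by a rule on the counts themselves, as kept cells with at least 1 UMI of RGS5 and at least 1 UMI of any of the other 6 genes. The rule found 24 of 13051 kept cells, 6 of 3443 in CT-LCG and 18 of 9608 in FT-LCG. The 7 genes were also selected on these same data, so the joint detection of the members in these cells is a description and was not tested.

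The data come from scapular skin of healthy Liaoning cashmere goats (Capra hircus) in anagen, the growth phase of the hair cycle, where 1 untreated goat with coarse fibre (CT-LCG) and 1 with fine fibre (FT-LCG) gave 1 library each. The tissue was trimmed of fat and blood, dissociated, cleared of red cells and dead cells, and loaded without sorting on the 10x Genomics Chromium 3' system, which tags RNA molecules with unique molecular identifiers (UMIs) so that each is counted once. The fibre type of each cell comes from the deposited cell table, because the sample labels state no type, and age and sex are not stated. No difference between the fibre types could be tested, since each had 1 library, and a fibre type cannot be told apart from its goat, its dissociation or its library.

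The cell table keeps 3443 of the 6102 CT-LCG barcodes and 9608 of the 11197 FT-LCG barcodes, with median depths of 2314 and 6121.5 UMIs. A level below is the summed UMIs of a gene per 10000 UMIs of the same cells, with an exact 95% Poisson interval, and a share of cells has a Clopper-Pearson interval. Both intervals cover counting error only. The libraries shared 11 barcode sequences, and 0 of the 24 cells carried such a barcode.

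Pericytes are mural cells that lie in the basement membrane of capillaries and small venules, against the endothelium, and together with vascular smooth muscle they support vessels and set their tone. Vasoactive hormones act on them through receptors coupled to G proteins. RGS proteins speed the hydrolysis of GTP on the alpha subunits of these G proteins and so shorten the signal, and RGS5 is widely used as a pericyte marker. In skin, capillary loops with pericytes surround growing hair follicles.

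RGS5 was detected in few cells, at counts from 1 to 108 UMIs. CT-LCG held 84 UMIs of RGS5 in 12 cells and FT-LCG held 262 UMIs in 36 cells. The summed levels were 0.0301 per 10000 (0.0240 to 0.0373) in CT-LCG and 0.0307 (0.0271 to 0.0346) in FT-LCG, with intervals that overlapped. The share of cells with RGS5 was 0.349% (0.180 to 0.608) in CT-LCG and 0.375% (0.263 to 0.518) in FT-LCG. Thinned to 1000 UMIs per cell, which left out 369 and 1039 shallower cells, these shares were 0.260% (0.112 to 0.512) and 0.175% (0.0980 to 0.289). The levels in thinned cells were 0.0651 and 0.0385, so the order of the libraries was not the same under both scalings. Granular layer-like keratinocytes, in which the gene is not known to act, gave 0 of 117 cells in CT-LCG and 0 of 330 in FT-LCG at median depths of 23300 and 15104 UMIs, with upper bounds of 3.10% and 1.11% on the share of such cells with a UMI. Both bounds are above the unthinned shares of all kept cells, so the counts of 0 cannot show a lower share in keratinocytes of this layer. A single cell carried 108 of the 262 UMIs in FT-LCG, and without it the level there was 0.0180 per 10000. The corresponding cell of CT-LCG carried 27 of 84 UMIs, and the level without it was 0.0204.

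The 24 cells carried most of the RGS5 molecules. They held 78 of the 84 RGS5 UMIs in CT-LCG (92.9%) and 241 of 262 in FT-LCG (92.0%). RGS5 counts per cell ran from 1 through a median of 12 to 27 in the 6 cells of CT-LCG, and from 1 through 5.5 to 108 in the 18 cells of FT-LCG. The ranges overlapped, and 7 of the FT-LCG cells but 1 of the CT-LCG cells had a single RGS5 UMI. Another 24 cells, of which 6 were from CT-LCG and 18 from FT-LCG, had RGS5 without any of the other members, and 23 of them had 1 RGS5 UMI. Their median depth was 1251.5 UMIs, against 4299.5 in the cells with another member, and 12 of the 24 lay in the inner root sheath-like cluster. At the threshold of the rule, 6 cells had exactly 1 other member. Of the rest, 1 cell had 2, 3 had 3, 5 had 4, 4 had 5 and 5 had all 6.

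**Figure D1:**
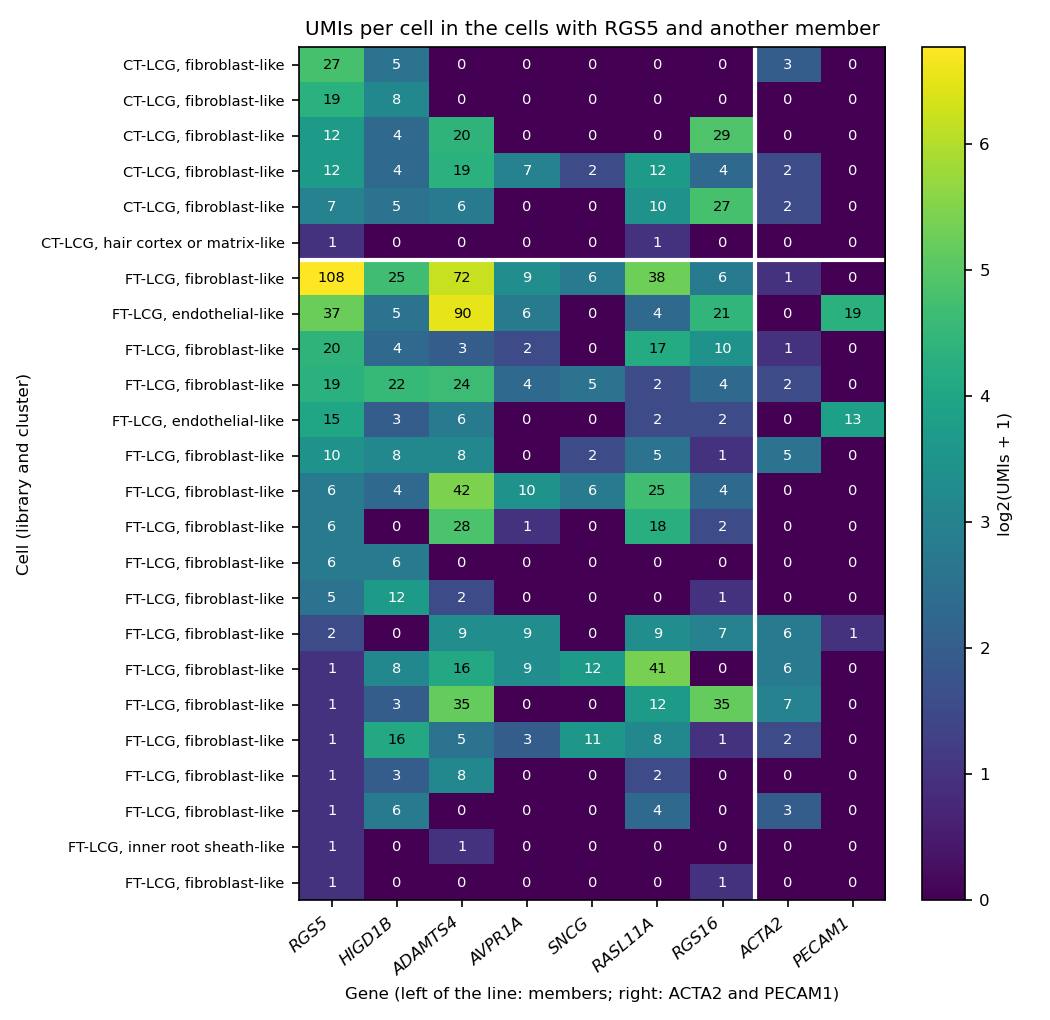
UMIs of the 7 members and of ACTA2 and PECAM1 (columns) in each of the 24 cells with RGS5 and another member (rows, named by library and cluster and ordered by RGS5 within each library). Numbers are UMIs and colours are log2(UMIs + 1). RGS5 reaches 108 UMIs in a cell of FT-LCG, the cells with 1 RGS5 UMI are mostly in FT-LCG, and PECAM1 is above 1 UMI in 2 cells.

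Among the regulators of G protein signalling, RGS16 accompanied RGS5 in some cells only. RGS16, which acts on Gi and Gq subunits, had 165 UMIs in 57 cells of CT-LCG and 374 UMIs in 139 cells of FT-LCG. Of the cells with RGS5 and another member, 3 of 6 in CT-LCG and 13 of 18 in FT-LCG had RGS16, with 60 and 95 UMIs. Taken over both libraries, RGS16 was found in 33.3% of the 48 RGS5 cells, while RGS5 was found in 8.16% of the 196 RGS16 cells. Of the RGS16 cells, 40 were fibroblast-like, 31 inner root sheath-like, 26 endothelial-like and 20 hair cortex or matrix-like. The T cell-like cluster and the cluster led by CCL27 and POSTN had 17 each. In CT-LCG and FT-LCG, 7.77% and 24.4% of fibroblast-like cells and 19.3% and 12.8% of T cell-like cells had RGS16. Of inner root sheath-like cells 0.653% and 1.18% had it, below the 1.66% and 1.45% of all kept cells. Its level was 0.0592 per 10000 (0.0505 to 0.0689) in CT-LCG against 0.0438 (0.0395 to 0.0485) for FT-LCG, a ratio of 0.740 that kept its direction in thinned cells, at 0.114 and 0.0735.

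AVPR1A, the Gq-coupled vasopressin receptor of vascular mural cells, was the only receptor among the members. It had 15 UMIs in 5 cells of CT-LCG and 165 UMIs in 31 cells of FT-LCG. Its level was 0.00538 per 10000 (0.00301 to 0.00887) and 0.0193 (0.0165 to 0.0225), a ratio of 3.59 of FT-LCG over CT-LCG with intervals that did not overlap. In thinned cells it was 0.00976 and 0.0327. The share of cells with AVPR1A was 0.145% (0.0472 to 0.339) in CT-LCG and 0.323% (0.219 to 0.458) in FT-LCG, with intervals that overlapped. AVPR1A was present in 1 of 6 and 9 of 18 of the cells with RGS5 and another member, which carried 46.7% and 32.1% of its UMIs.

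HIGD1B, a mitochondrial protein of the hypoxia-inducible domain family, was found beside RGS5 in 19 cells over both libraries, against 18 for ADAMTS4. In FT-LCG it was found beside RGS5 in 14 cells, against 15 for ADAMTS4. It had 38 UMIs in 9 cells of CT-LCG and 152 UMIs in 28 cells of FT-LCG, or 0.0136 per 10000 (0.00964 to 0.0187) and 0.0178 (0.0151 to 0.0209), with overlapping intervals, and 0.0358 and 0.0315 in thinned cells, in the opposite order. In the cells with RGS5 and another member it was present in 5 of 6 and 14 of 18, with 68.4% and 82.2% of its UMIs. Counted over both libraries, 51.4% of the 37 HIGD1B cells had RGS5 and 39.6% of the 48 RGS5 cells had HIGD1B. SNCG, or gamma-synuclein, had 13 UMIs in 10 cells of CT-LCG and 143 in 31 cells of FT-LCG, or 0.00466 per 10000 (0.00248 to 0.00797) and 0.0167 (0.0141 to 0.0197), again a ratio of 3.59, but 0.0228 and 0.0408 in thinned cells. SNCG was the least frequent companion of RGS5, in 1 of 6 and 6 of 18 cells. The share of kept cells with SNCG was 0.290% (0.139 to 0.533) in CT-LCG and 0.323% (0.219 to 0.458) in FT-LCG, with intervals that overlapped.

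ADAMTS4 and RASL11A were detected far more widely. ADAMTS4, a secreted protease that cleaves aggrecan and versican, had 389 UMIs in 119 cells of CT-LCG and 1446 in 355 cells of FT-LCG. RASL11A, a small GTPase of the Ras-like family, had 591 UMIs in 265 cells and 2234 in 722 cells. Their levels in FT-LCG were 1.21 and 1.23 times those in CT-LCG, at 0.169 per 10000 (0.161 to 0.178) against 0.139 (0.126 to 0.154) for ADAMTS4 and 0.262 (0.251 to 0.273) against 0.212 (0.195 to 0.230) for RASL11A. In thinned cells RASL11A kept this order, at 0.338 against 0.283, and ADAMTS4 did not, at 0.287 against 0.322. ADAMTS4 was present in 3 of 6 and 15 of 18 of the cells with RGS5 and another member, and RASL11A in 3 of 6 and 14 of 18. These cells nevertheless carried only 11.6% and 24.1% of the ADAMTS4 UMIs and 3.89% and 8.37% of the RASL11A UMIs. In both chosen cells that lay outside the fibroblast-like and endothelial-like clusters, the other member was ADAMTS4 or RASL11A at 1 UMI.

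Clusters were made without these 7 genes, and also without the mural receptor and signalling genes, the contractile genes and PECAM1. Across the 13 clusters, every member had its highest level, as the mean of both libraries, in the fibroblast-like cluster. This cluster was named from COL1A1, COL1A2 and COL3A1 and had 103 CT-LCG cells and 131 FT-LCG cells. RGS5 stood there at 1.58 per 10000 (1.24 to 1.97) in CT-LCG and 3.12 (2.69 to 3.60) in FT-LCG. All 5 RGS5 cells of this cluster in CT-LCG, and all 15 in FT-LCG, also had another member. The cell with 108 RGS5 UMIs belonged to it, and without that cell the FT-LCG level was 1.36. Next in order came the endothelial-like cluster, with 0 UMIs in 55 cells of CT-LCG (up to 6.49% of cells) and 0.577 (0.431 to 0.757) in FT-LCG, where 2 cells held all 52 UMIs. The inner root sheath-like cluster followed at 0.0302 (0.00822 to 0.0772) and 0.0276 (0.0126 to 0.0523), with 1 UMI in each of its 13 RGS5 cells. In FT-LCG this lay above the cluster led by KRT6A and ACTG2, with 0 UMIs (up to 0.0105), and in CT-LCG the intervals overlapped, that cluster being at 0.0207 (0.000525 to 0.116). The inner root sheath-like levels were near those of all kept cells, 0.0301 and 0.0307. That cluster also had the lowest median depths of the 13, at 1085 and 1121 UMIs. Each cluster further down had at most 9 UMIs of RGS5 in a library, and the intervals of neighbours in the order overlapped. The granular layer-like, T cell-like, mast cell-like, macrophage or dendritic-like and CXCL14 outer root sheath or bulge-like clusters had 0 in both libraries. In all, 20 of the 24 cells were in the fibroblast-like cluster, 2 were endothelial-like, 1 was inner root sheath-like and 1 was hair cortex or matrix-like.

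The other members differed in how far they extended beyond that cluster. AVPR1A and HIGD1B had 90.6% and 90.5% of all their UMIs in it. AVPR1A stood at 0.287 per 10000 (0.157 to 0.481) in CT-LCG and 2.47 (2.09 to 2.90) in FT-LCG, and HIGD1B at 0.737 (0.516 to 1.02) and 2.26 (1.89 to 2.67). SNCG stood at 0.123 (0.0451 to 0.268) in CT-LCG and 2.07 (1.73 to 2.47) in FT-LCG. In each of these 3 genes the FT-LCG interval lay above that of CT-LCG.

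ADAMTS4 was shared with endothelium. Its fibroblast-like level was 4.01 per 10000 (3.47 to 4.62) in CT-LCG and 10.6 (9.84 to 11.5) in FT-LCG, and its endothelial-like level was 4.56 (3.69 to 5.57) and 4.47 (4.05 to 4.93). The first and second clusters therefore overlapped in CT-LCG and were apart in FT-LCG. ADAMTS4 was detected in 20 of 103 and 33 of 131 cells of the fibroblast-like cluster. A cluster level is a sum over cells and does not show that the collagen-rich cells of the cluster carried a member. RGS16 was highest in the T cell-like cluster of CT-LCG, at 2.36 (1.78 to 3.07) against 1.37 (1.06 to 1.74) in the fibroblast-like cluster, while FT-LCG had 0.787 (0.474 to 1.23) against 3.15 (2.72 to 3.63). RASL11A had 17.0% of its UMIs in the fibroblast-like cluster, at 1.41 (1.10 to 1.79) and 6.82 (6.17 to 7.51). It also reached 0.603 (0.404 to 0.865) and 0.798 (0.711 to 0.893) in the CXCL14 outer root sheath or bulge-like cluster, and in granular layer-like cells it stood at 0.124 and 0.0131.

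**Figure D2:**
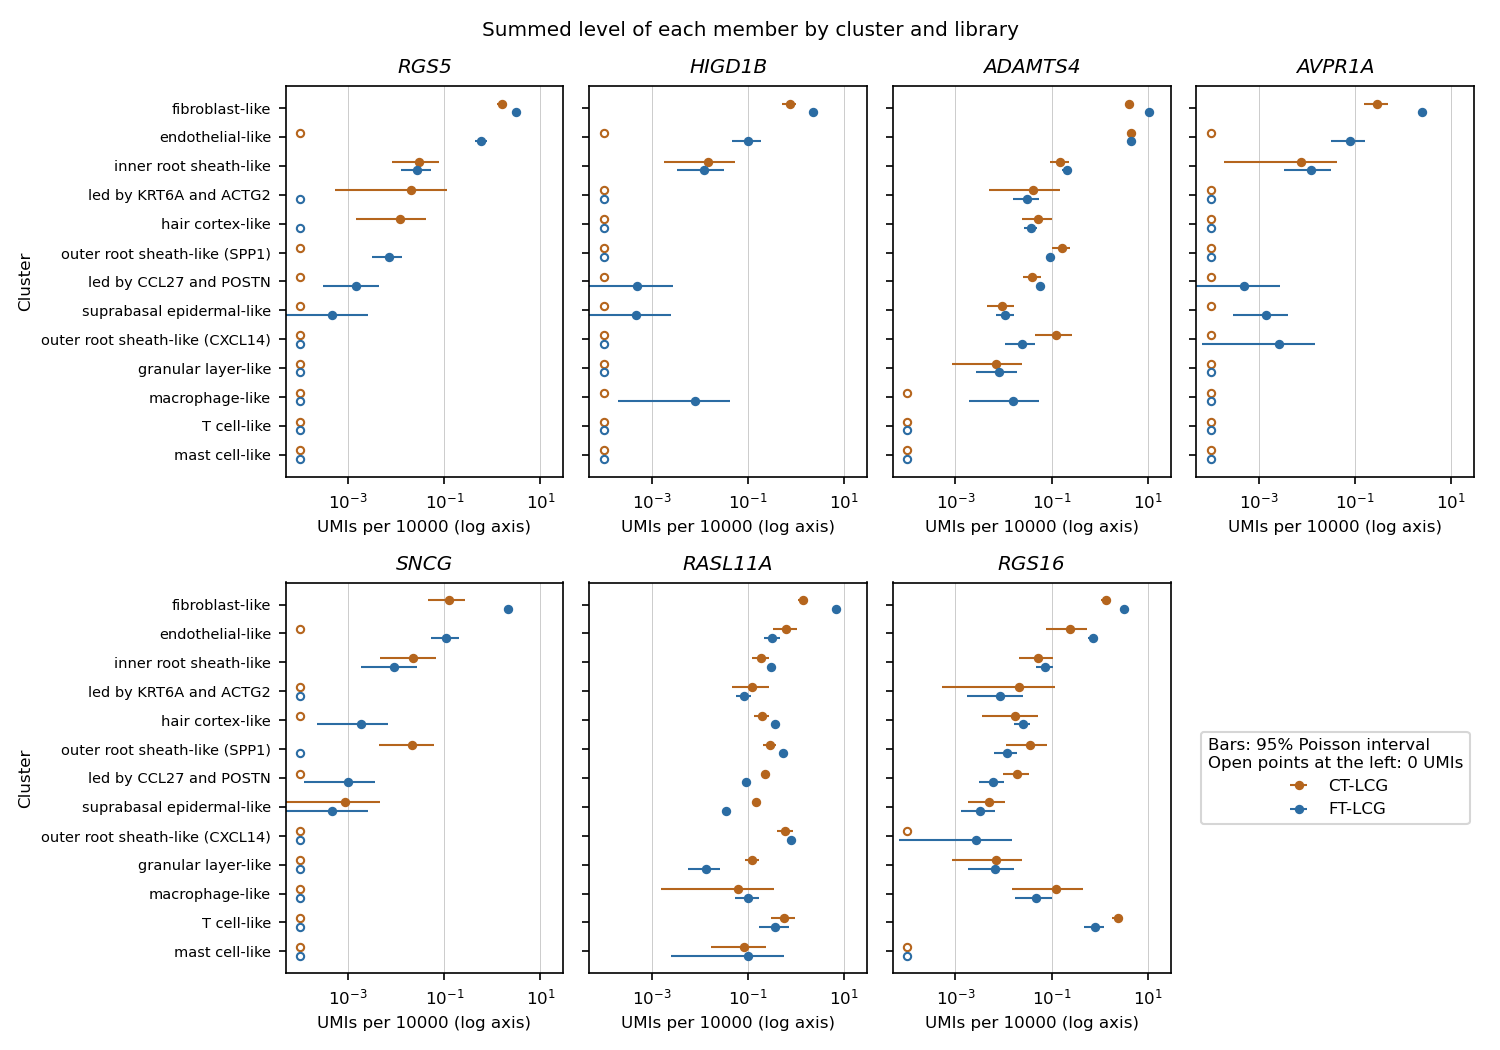
Level of each member (UMIs per 10000, log axis) in each of the 13 clusters, ordered by RGS5, for CT-LCG and FT-LCG. Bars are 95% Poisson intervals and open points at the left edge are 0 UMIs. RGS5, HIGD1B, AVPR1A and, in FT-LCG only, SNCG fall off steeply below the fibroblast-like cluster, while ADAMTS4, RGS16 and RASL11A keep measurable levels in others. In CT-LCG the SNCG intervals of the fibroblast-like and inner root sheath-like clusters overlap.

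Markers of mural cells were present in the cells with RGS5 and another member. All 7 mural markers in the matrix (PDGFRB, NOTCH3, CSPG4, MCAM, KCNJ8, ABCC9 and NDUFA4L2) had UMIs there in each library. Their summed level was 13.7 per 10000 in CT-LCG and 8.06 in FT-LCG, against 0.917 and 2.46 in the other kept cells. NDUFA4L2, a mitochondrial protein induced by low oxygen, had 55 UMIs in 16 cells and gave 50 of the 107 mural UMIs of FT-LCG, at 3.77 per 10000 (2.80 to 4.97) against 2.09 in the other cells. NOTCH3, the Notch receptor of mural cells, had 27 UMIs in 13 cells, and PDGFRB, the receptor through which PDGF-BB recruits pericytes, had 15 UMIs in 11 cells. ABCC9 and KCNJ8, which together form a potassium channel sensitive to ATP, had 17 UMIs in 7 cells and 9 UMIs in 6 cells. CSPG4, or NG2, another classical pericyte marker, had only 3 UMIs in 2 cells, and in FT-LCG it stood at 0.151 (0.0182 to 0.544) against 0.135. With 0.1 UMIs per 10000 added to both levels, neither NDUFA4L2 nor CSPG4 was 4-fold higher than in the other cells in either library. In CT-LCG CSPG4 had 1 UMI in 1 cell.

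Markers of other cell types were unevenly present in the same cells. Smooth muscle markers had a summed level of 4.02 per 10000 in CT-LCG and 5.42 in FT-LCG, against 0.159 and 0.309 in the other cells. They were found in 3 cells of CT-LCG and 12 of FT-LCG. DES (43 UMIs in 14 cells) and MYH11 (21 in 7) led, and LMOD1 and ACTG2 were at 0 in both libraries. Whether the cells were pericytes or smooth muscle cells was not tested. Fibroblast markers had a summed level of 10.4 per 10000 in CT-LCG and 6.86 in FT-LCG, against 2.38 and 1.90 in the other cells, with DCN (43 UMIs in 10 cells), COL3A1 (28 in 11) and COL1A1 (20 in 10) leading and PDGFRA and DPT at 0 in both libraries. Per cell they ranged from 0 to 35.2 per 10000 over the cells of CT-LCG and from 0 to 35.9 over those of FT-LCG. All 5 T cell markers, all 6 Schwann cell markers, and CD74, C1QA, CD207, AIF1 and TYROBP of macrophages or dendritic cells were at 0 in both. CD68 of the same list had 1 UMI in 1 cell. Endothelial markers were limited in CT-LCG to CDH5, at 2 UMIs in 1 cell, while in FT-LCG 7 of 8 were detected in 4 cells, with a range per cell from 0 to 43.6 and SELE at 0. Basal epidermal markers had a level of 11.7 in CT-LCG, against 78.4 in the other cells, and of 91.6 in FT-LCG, against 237, where a cell reached 383. KRT14, the basal keratin, had 387 UMIs in an FT-LCG cell with 6 RGS5 UMIs. Suprabasal epidermal markers had levels of 61.9 and 44.2, against 568 and 339, with KRT1 and KRT10 in all 24 cells. Inner root sheath markers were at 10.8 in CT-LCG, against 8.51 in the other cells, and at 2.185 in FT-LCG, against 20.1. KRT25 of that list was found in 15 cells. The part of epidermal, hair follicle and endothelial RNA in the results was not tested.

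The shares of these cells with ACTA2, the smooth muscle actin, and PECAM1, the adhesion molecule of endothelial junctions, had overlapping intervals in each library. ACTA2 was found in 3 of 6 cells of CT-LCG (50.0%, 11.8 to 88.2) and 9 of 18 of FT-LCG (50.0%, 26.02 to 74.0), against 2.36% (1.88 to 2.92) and 4.63% (4.22 to 5.07) of the other cells. Counts were low, with 7 UMIs for CT-LCG, 33 for FT-LCG and at most 7 in a cell. These were 2.49% and 2.12% of all ACTA2 UMIs of the libraries. In cells thinned to 1000 UMIs the overlap was 1 of 5 cells in CT-LCG and 2 of 9 in FT-LCG, against 1.17% and 1.29% of the other thinned cells. The FT-LCG share, 22.2% (2.81 to 60.01), was below the lower bound before thinning, and the shares of the other cells were also lower than before. Without thinning, ACTA2 was in 7.77% and 22.1% of the cells of the fibroblast-like cluster. Over both libraries it was in 48.6% of HIGD1B cells, 52.8% of AVPR1A cells and 41.5% of SNCG cells, sets that include some of the chosen cells.

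PECAM1 was found in 0 of 6 cells of CT-LCG (up to 45.9% by the interval) and 3 of 18 of FT-LCG (16.7%, 3.58 to 41.4), against 3.75% and 2.14% of the other cells. A pair of the FT-LCG cells, with 13 and 19 PECAM1 UMIs, also had 12 and 16 UMIs of VWF, the von Willebrand factor of endothelium, and were the 2 cells in the endothelial-like cluster. They carried 15 and 37 RGS5 UMIs, and the deeper of them, at 26841 UMIs, was among the 5% of cells with the highest doublet scores. The third had 1 PECAM1 UMI, 6 of ACTA2 and 2 of RGS5, and was the only cell with both genes. Neither gene was seen in 3 CT-LCG cells and 7 FT-LCG cells. The automatic doublet call marked 0 cells in both libraries and so set no cell aside. Leaving out the 5% with the highest scores kept 6 and 16 cells, of which ACTA2 was in 3 and 8 and PECAM1 in 0 and 2.

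Inside the fibroblast-like cluster, ACTA2 was described in cells with and without RGS5. The cluster was divided, after these values had been seen, into the cells with RGS5 (5 and 15), cells with HIGD1B, AVPR1A or SNCG but no RGS5 (4 and 17) and all others (94 and 99). ACTA2 stood at 3.04 per 10000 (1.22 to 6.26) in the RGS5 cells of CT-LCG and 3.40 (2.34 to 4.78) in those of FT-LCG. In the second group it stood at 22.4 (16.8 to 29.4) and 14.3 (11.7 to 17.2). Both libraries thus had lower summed ACTA2 in the RGS5 cells than in this second group. The counting intervals were apart, but they do not cover the spread between cells. The sets were drawn on RGS5 itself and held 5 and 4 cells in CT-LCG, so this is a description and was not tested. The remaining cells differed between libraries, at 0.0906 (0.0247 to 0.232) in CT-LCG and 13.8 (12.7 to 14.9) in FT-LCG, where 9 cells held 594 UMIs, or 80.9% of the cluster's ACTA2. The RGS5 cells thus lay above the remaining cells in CT-LCG and below them in FT-LCG.

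TAGLN, an actin-binding protein of smooth muscle, followed ACTA2. Its level was 11.7 (7.73 to 17.1) and 12.2 (10.1 to 14.6) in the RGS5 cells, and 46.2 (37.9 to 55.7) and 43.1 (38.5 to 48.1) in the cells with HIGD1B, AVPR1A or SNCG alone. MYH11, the smooth muscle myosin, was at 2.17 (0.705 to 5.07) and 1.65 (0.943 to 2.68) in the RGS5 cells against 11.4 (7.53 to 16.6) and 4.27 (2.92 to 6.03). The members themselves defined these sets, so their levels are only a description of them. ADAMTS4 was lower in the RGS5 cells, at 19.5 (14.3 to 26.1) and 25.98 (22.9 to 29.4) against 49.5 (41.0 to 59.4) and 47.1 (42.3 to 52.3), whereas RASL11A had overlapping intervals in both libraries, at 9.55 (5.99 to 14.5) against 9.74 (6.17 to 14.6) and 18.7 (16.04 to 21.6) against 24.5 (21.1 to 28.4). RGS16 was at 26.1 (19.9 to 33.5) in the RGS5 cells against 1.27 (0.262 to 3.71) in CT-LCG. There its 60 UMIs lay in 3 of the RGS5 cells, at 29, 27 and 4, so the value rested on few cells. In FT-LCG it was at 7.42 (5.81 to 9.35) against 10.8 (8.58 to 13.4), and the intervals overlapped.

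COL1A1, the fibrillar collagen for which the cluster was named, was low in the RGS5 cells, at 1.30 per 10000 (0.269 to 3.81) in CT-LCG and 1.75 (1.02 to 2.81) in FT-LCG. In the remaining cells of the cluster it was at 47.4 (45.4 to 49.5) and 110.0 (107 to 113). NOTCH3 stood at 3.47 (1.4996 to 6.84) and 1.75 (1.02 to 2.81) in the RGS5 cells and 0.113 (0.0368 to 0.264) and 0.186 (0.0802 to 0.366) in the remaining cells. In the cells with HIGD1B, AVPR1A or SNCG alone it was 3.39 (1.46 to 6.67) in CT-LCG and 0.534 (0.145 to 1.37) in FT-LCG, overlapping the RGS5 cells in both. MCAM, an adhesion molecule of mural and endothelial cells, had 1.74 (0.473 to 4.45) and 1.03 (0.494 to 1.90) against 0.0679 (0.0140 to 0.199) and 0.0464 (0.00562 to 0.168) in the remaining cells, and in the cells with HIGD1B, AVPR1A or SNCG alone 0 (up to 1.56) and 1.47 (0.732 to 2.63), again overlapping. PDGFRB was at 2.17 (0.705 to 5.07) against 0.385 (0.224 to 0.616) in CT-LCG, but at 0.928 (0.424 to 1.76) against 0.464 (0.284 to 0.717) in FT-LCG, where the intervals overlapped. The RGS5 cells thus made up 4.85% and 11.5% of the cells of the cluster and held 0.143% and 0.334% of its COL1A1 UMIs. Cells of a set also differ among themselves, which these intervals do not cover.

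**Figure D3:**
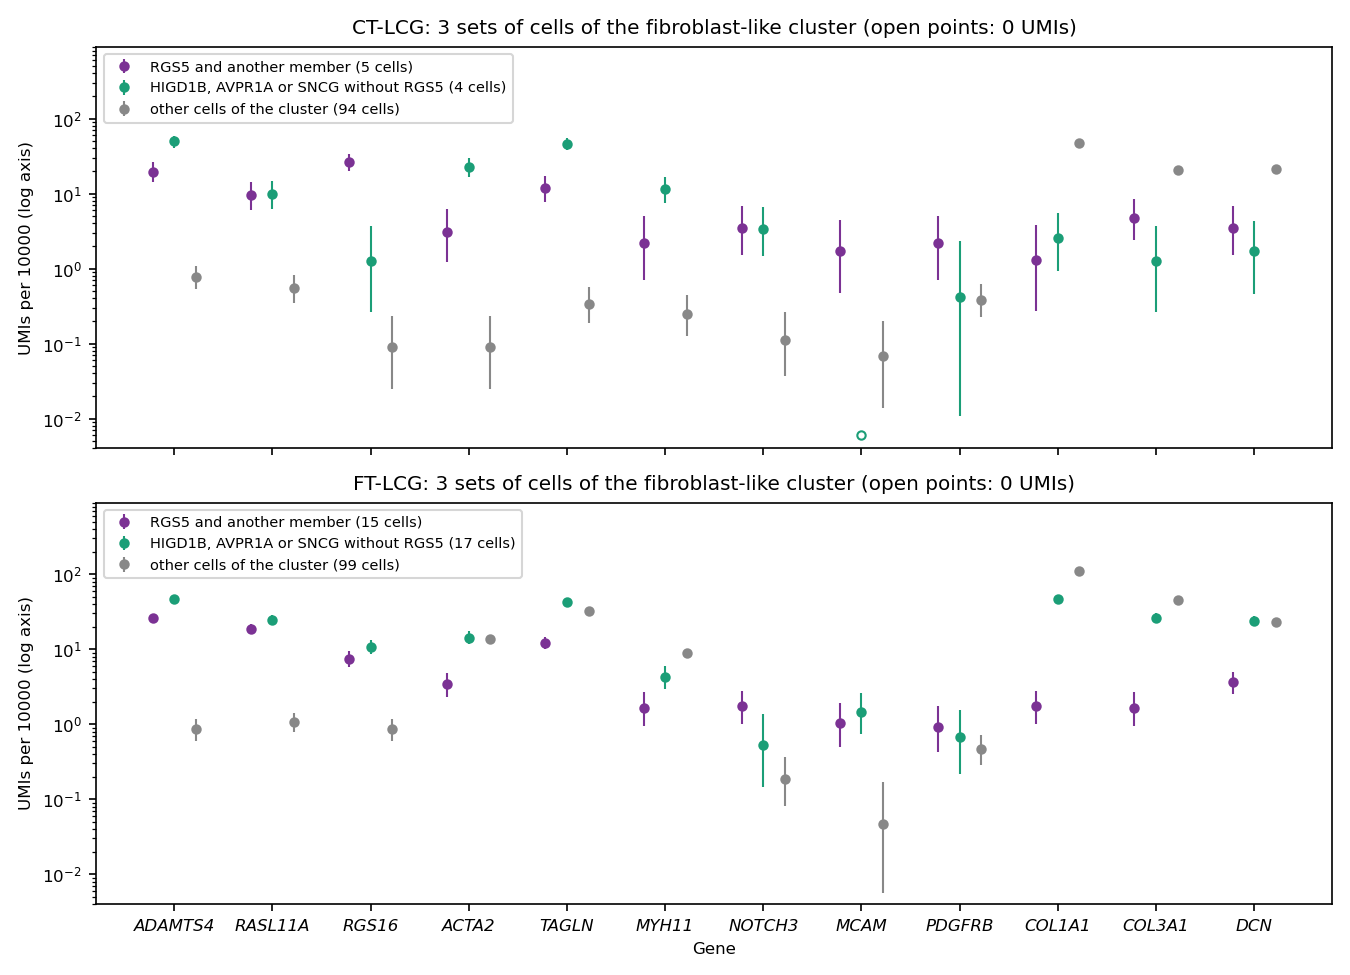
Levels (UMIs per 10000, log axis) of 12 genes in 3 sets of cells of the fibroblast-like cluster, CT-LCG above and FT-LCG below. Points are summed levels, bars 95% Poisson intervals and open points 0 UMIs. ACTA2, TAGLN and MYH11 are lower in the cells with RGS5 than in those with HIGD1B, AVPR1A or SNCG alone, and COL1A1 is highest in the other cells.

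Each gene list was then described by the log2 ratio of levels between the 24 cells and the other kept cells of the same library, with 0.1 UMIs per 10000 added to both and only genes with at least 50 UMIs in the library counted. A ratio of at least 4-fold was counted, which is a size and not a test. Over all genes, 612 of 11566 in CT-LCG (5.29%) and 338 of 13583 in FT-LCG (2.49%) were at least 4-fold higher, and 1044 (9.03%) and 194 (1.43%) were at least 4-fold lower, with median log2 ratios of -0.45 and -0.12. In CT-LCG a single UMI in the 6 cells already equals 0.402 per 10000, so there a small count can pass. Of the members, 4 of 4 counted in CT-LCG and 7 of 7 in FT-LCG passed, which the rule itself brings about, and HIGD1B, AVPR1A and SNCG were under 50 UMIs in CT-LCG.

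Contractile genes, which give mural cells their force, were the list beyond the members with the highest share when 0.1 was added. In CT-LCG 10 of 13 (76.9%) and in FT-LCG 14 of 18 (77.8%) were at least 4-fold higher, with median log2 ratios of 3.23 and 2.83 and 0 genes at least 4-fold lower. With 0.5 added in place of 0.1, 6 of 13 and 8 of 18 passed, against 1.15% and 0.744% of all genes. In CT-LCG the mural receptor and signalling list then had a higher share, at 5 of 9. In thinned cells 7 of 13 and 13 of 18 contractile genes passed, against 8.01% and 5.71% of all genes. TPM2, a tropomyosin of muscle, stood at 8.04 per 10000 in the 6 cells of CT-LCG and 6.56 in the 18 of FT-LCG, against 0.0729 and 0.131 in the other cells. TPM2 was also among the leading genes of the whole fibroblast-like cluster. PLN, or phospholamban, which restrains the calcium pump, stood at 4.42 and 3.09, against 0.00646 and 0.0107. DES, the muscle intermediate filament desmin, stood at 1.61 and 2.94, against 0.00502 and 0.0108. Both PLN and DES were under 50 UMIs in CT-LCG and were not counted there, with DES at 4 UMIs in 2 of the chosen cells. At the other end ACTG2, the enteric smooth muscle actin, was at 0 UMIs in all 24 cells. The ratios of this and the other lists are against all other kept cells, not against the fibroblast-like cluster alone. Over that whole cluster ACTA2 was higher than in the chosen cells of FT-LCG, 12.2 against 2.49 per 10000. For CT-LCG it was lower, 1.31 against 2.81. PLN was lower over the cluster in both libraries, 0.533 against 4.42 for CT-LCG and 1.86 against 3.09 for FT-LCG.

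Mural receptor and signalling genes followed, with 5 of 9 (55.6%) in CT-LCG and 9 of 14 (64.3%) in FT-LCG at least 4-fold higher and medians of 3.22 and 2.30. EBF1, a transcription factor of mural and B cells, stood at 2.41 and 2.94 per 10000, against 0.0187 and 0.0150. GJA4, a connexin of vessel walls, stood at 1.61 and 1.73, against 0.00574 and 0.00973, and was found in 4 of 6 and 11 of 18 cells. ESAM, an adhesion molecule better known from endothelium, stood at 0.804 and 1.88, against 0.00718 and 0.0197. GJA4 and ESAM were under 50 UMIs in CT-LCG and were not counted there. ANPEP, an aminopeptidase of brain pericytes, had 0 UMIs in all 24 cells. Without the 3 cells that had PECAM1, 8 of the 14 FT-LCG mural genes were at least 4-fold higher. Of the 18 contractile genes 14 were, against 2.37% of all genes. The mural counts depended on the settings, with 5 and 3 when 0.5 was added and 3 and 7 in thinned cells. With a minimum of 10 UMIs they were 12 and 14, but this setting also counted more genes. Over all genes it counted 14624 and 16200, of which 877 and 366 passed, in place of 11566 and 13583. The rise in the mural counts is therefore not a stronger result.

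RGS2, another regulator of Gq signals, was detected beside RGS5 and RGS16, with 6 UMIs in 3 of the CT-LCG cells (2.41 per 10000, 0.885 to 5.25, against 1.04 in the other cells) and 8 UMIs in 4 of the FT-LCG cells (0.603, 0.260 to 1.19, against 0.838). Of the other RGS genes with at least 50 UMIs, 0 of 7 in CT-LCG and 0 of 10 in FT-LCG were at least 4-fold higher, with medians of -0.33 and -0.36, near the medians of all genes. RGS3 had 0 UMIs in the CT-LCG cells and 4 in the FT-LCG cells, RGS6, which was under 50 UMIs in CT-LCG, had 2 in each, RGS12 had 0 and 2, and RGS19 had 1 and 0. RGS4, which lies next to RGS5 among the coding genes of the RefSeq table (assembly ARS1.2), had 1 UMI in the cells of CT-LCG and 0 in those of FT-LCG. ADAMTS4 lies on the same chromosome as RGS5 in that table, and RGS16 on another.

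For the other vasoactive receptors and their G proteins, 3 of 14 (21.4%) in CT-LCG and 3 of 17 (17.6%) in FT-LCG were at least 4-fold higher, with medians of 0.15 and 1.32. PLCB4 had fewer than 50 UMIs in the other cells of FT-LCG and so was counted only through the chosen cells, and with the minimum set on the other cells the FT-LCG count was 2 of 16. ADRA2A, an adrenergic receptor coupled to Gi, stood at 0.402 and 1.05 per 10000, against 0.0100 and 0.0116. ITPR1, the calcium release channel opened by Gq signals, stood at 1.21 and 0.452, against 0.0266 and 0.0182, and PLCB4, the phospholipase below Gq, at 0.804 and 0.377, against 0.0104 and 0.00575. ADRA2A and PLCB4 were under 50 UMIs in CT-LCG and were not counted there. GNAI1, a Gi alpha subunit, had 0 UMIs in the CT-LCG cells (up to 1.48 per 10000, against 0.875 in the other cells) and 2 in the FT-LCG cells, or 0.151 (0.0182 to 0.544) against 0.344. AVPR2 had 1 UMI, in FT-LCG, so that AVPR1A was the vasopressin receptor detected at more than 1 UMI in these cells.

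Among the other ADAMTS proteases, their substrates and the inhibitor TIMP3, 2 of 4 (50.0%) in CT-LCG and 3 of 10 (30.0%) in FT-LCG were at least 4-fold higher. TIMP3, which inhibits ADAMTS4, had the highest ratio, at 7.63 and 4.45 per 10000 against 0.334 and 0.425, and was found in 5 of 6 and 14 of 18 cells. ADAMTS9 stood at 1.21 and 0.979, against 0.0822 and 0.0453, and ADAMTS15 at 0.402 and 0.603, against 0.00502 and 0.00516. ADAMTS15 too was counted in FT-LCG only through the chosen cells, and the count was 2 of 9 with the minimum set on the other cells. In CT-LCG ADAMTS15 was under 50 UMIs and was not counted. VCAN, the versican that ADAMTS4 cleaves, had 1 UMI in CT-LCG and 0 in FT-LCG. Of the relatives of HIGD1B, SNCG and RASL11A, 0 of 3 and 1 of 5 were at least 4-fold higher and 2 of 3 and 0 of 5 at least 4-fold lower, HIGD1A and HIGD2A having 0 UMIs in the 6 CT-LCG cells (up to 1.48 per 10000, against 1.02 and 1.07). The gene at least 4-fold higher in FT-LCG was RASL12, at 4.42 and 0.904 against 0.00933 and 0.0186. In CT-LCG RASL12 was under 50 UMIs and was not counted. In FT-LCG HIGD1A stood at 1.51, against 1.17, RASL11B had 0 UMIs in both libraries, and RERG had 1 UMI in CT-LCG and 0 in FT-LCG.

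Ligands and receptors between endothelium and mural cells gave 3 of 14 (21.4%) and 4 of 20 (20.0%) at least 4-fold higher. CXCL12, a chemokine of perivascular cells, stood at 1.61 and 1.73 per 10000 against 0.0373 and 0.0609, ENG, a TGF-beta coreceptor of vessels, at 0.402 and 0.678 against 0.0319 and 0.0362, and ANGPT1, the mural ligand of the endothelial TIE2 receptor, at 0.804 and 0.377 against 0.00395 and 0.00680. ANGPT1 was under 50 UMIs in CT-LCG and was not counted there. PDGFD had 0 UMIs in all 24 cells. Basement membrane genes gave 8 of 12 (66.7%) and 6 of 15. The highest ratios of FT-LCG were those of SPARCL1 at 5.62 and 2.03 against 0.0449 and 0.0462, COL4A1 at 7.63 and 3.54 against 0.174 and 0.270, and LAMA4 at 0.402 and 0.979 against 0.00969 and 0.0158. In CT-LCG LAMA4 was under 50 UMIs and COL4A2, at 6.43 against 0.0768, had a higher ratio than COL4A1. COL4A5, a less abundant collagen IV chain, had 1 UMI in CT-LCG and 0 in FT-LCG.

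**Figure D4:**
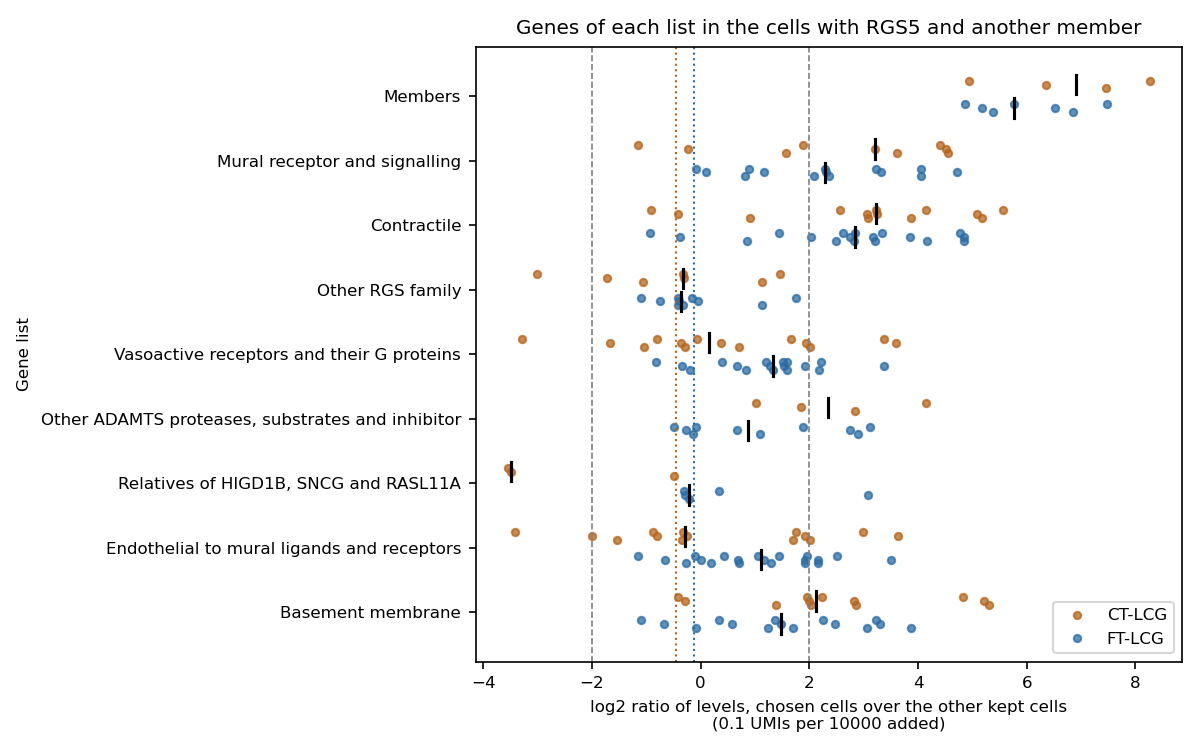
Log2 ratio of levels between the cells with RGS5 and another member and the other kept cells, for each gene with at least 50 UMIs (points) in each list, by library. Black bars are list medians, dashed lines 4-fold, and dotted lines the median of all genes in each library. The contractile list has medians of 3.23 and 2.83, and the other RGS family lies near the median of all genes.

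Outside the members and lists, the 10 genes with the highest ratios were ranked in FT-LCG, because CT-LCG had fewer than 10 such cells. They were LOC106502686, C15H11orf96, APOE, LOC102175889, CDC42EP2, C28H10orf10, PRRX2, NR2F2, TWIST1 and WFDC1. APOE, the lipid carrier, was among the most abundant, at 54.6 per 10000 in CT-LCG and 73.1 in FT-LCG against 0.348 and 0.468 in the other cells, and had UMIs in 6 of 6 and 16 of 18 cells. C15H11orf96 stood at 46.2 and 36.4, against 0.271 and 0.163, and was found in 5 of 6 and 15 of 18. LOC106502686 had 22 UMIs in 4 cells of CT-LCG and 292 in 16 cells of FT-LCG. With C15H11orf96 and TWIST1, it was also among the leading genes of the whole fibroblast-like cluster. There LOC106502686 stood at 14.8 and 11.7 per 10000, against 8.84 and 22.0 in the chosen cells. PRRX2 stood there at 4.08 and 2.72, against 6.83 and 4.37, and WFDC1 at 3.71 and 3.55, against 13.7 and 4.29. These ratios therefore do not separate the chosen cells from the rest of that cluster. The transcription factors PRRX2, of mesenchyme, NR2F2, of veins and mesenchyme, and TWIST1, of mesenchyme, were found in 16, 15 and 11 of the 18 cells of FT-LCG and in 5, 5 and 4 of the 6 of CT-LCG. LOC102175889 rested on few cells, with 142 UMIs in 4 cells of FT-LCG and 26 UMIs in 1 cell of CT-LCG.

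The pattern of RGS5 over clusters was compared with that of 13013 other genes with at least 100 UMIs, as Pearson's r of log2(level + 0.1) over 26 values, 13 clusters in each library. These values share libraries, depth and the low levels of most clusters, so r is a description without a p. The 10 genes with the highest r were SPON2 (0.972), HIGD1B (0.967), TMEM100 (0.965), WFDC1 (0.965), ECM2 (0.963), CCDC80 (0.954), PLN (0.954), FAP (0.952), LOC106502686 (0.950) and KANK2 (0.949). Of the members, HIGD1B ranked 2, AVPR1A 20 (0.93), SNCG 57 (0.89), ADAMTS4 123 (0.83), RGS16 319 (0.72) and RASL11A 324 (0.72). COL1A1 ranked 66 (0.89), above ACTA2 at 440 (0.67), and PECAM1 ranked 5832 (0.13). A likeness over clusters does not separate the RGS5 cells from the collagen-rich cells of the same cluster.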

How the data were processed

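Single cells of the skin of 1 goat per fibre type were sequenced. The deposited values are UMI counts per gene and barcode, which the authors made with Cell Ranger 3.0.2, per the file headers, without normalization and with both libraries in 1 matrix. The submitters' processing notes also name bcl2fastq and Seurat 3.1.1. The deposited cell table set the kept cells and their fibre type. The goat genome build was not given in the sources used here. Sequences, positions and reads were left out.

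The 7 members and the gene lists were chosen with earlier results of these data known. Cells with a UMI of RGS5 and of another member were taken from the kept cells, with 729 to 172185 UMIs in CT-LCG and 630 to 190503 in FT-LCG. Clusters were made from the 2000 most variable genes, without 56 genes that include the members, with 10 principal components, Harmony written again in numpy, and the Leiden algorithm at a resolution of 0.3. They were named from marker lists, or left unnamed. Ratios add 0.1 UMIs per 10000 and use genes with at least 50 UMIs in a library. The text names every member, ACTA2 and PECAM1, the 3 genes with the highest and the 1 with the lowest ratio in FT-LCG of each list, the 10 genes outside the lists with the highest ratio and the 10 most like RGS5. The mural and other markers, KRT14, VWF, RGS2, RGS4, AVPR2, HIGD2A, COL4A2, TAGLN, MYH11 and COL1A1 were named beyond this rule, after their values were seen. In data simulated for the FT-LCG ratio, with 13583 genes and 18 chosen cells, 97% of genes changed 16-fold had the right sign and 79.5% passed the 4-fold size, while of genes changed 4-fold 90% had the right sign and 9.5% passed. The simulated cells were drawn as a single pool from the library mean, without differences between cells or cell types. These percentages therefore cover counting error only. Tools were scanpy 1.11.5, whose Scrublet gave doublet scores, leidenalg 0.10.2, scipy 1.17.1, numpy 2.4.6, matplotlib 3.10.9 and pandas 2.3.3, under Python 3.11.15. Of 178 list genes, 8 are not among the features.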

Additional observations from a re-analysis of the deposited data

Results flagged for a closer look

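Members also had UMIs in barcodes outside the kept cells, which were 2659 for CT-LCG and 1589 for FT-LCG and entered no comparison. RGS5 had 6 UMIs there in CT-LCG and 7 in FT-LCG, ADAMTS4 had 37 and 25, RASL11A had 41 and 32, and RGS16 had 6 and 8, each above the 3 counts that a count of 0 allows. The RGS5 level in these barcodes was 0.0303 per 10000 (0.0111 to 0.0659) in CT-LCG, near that of the kept cells, and 0.0702 (0.0282 to 0.145) in FT-LCG. HIGD1B, AVPR1A and SNCG had between 0 and 3 UMIs.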

How the results depend on the processing

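The RGS5 level, 0.0301 per 10000 in CT-LCG and 0.0307 in FT-LCG, was 0.0651 and 0.0385 in thinned cells, 0.0691 and 0.0454 as a mean over cells, and 0.0204 and 0.0180 without the cell with the most RGS5 UMIs, an alternative chosen after seeing the data. The 6 cells of CT-LCG with another member were 3 when at least 2 other members were asked for. The 18 of FT-LCG were 11 with at least 2 UMIs of RGS5 and 9 in thinned cells, where 22.2% had ACTA2. The fibroblast-like RGS5 level of FT-LCG was 4.16 without Harmony and 3.98 with 20 PCs. Genes at least 4-fold higher, 612 and 338, were 133 and 101 with 0.5 added and 926 and 776 in thinned cells. With 0.5 added, 6 of the 10 genes most like RGS5 were still among the 10. The cause of these changes was not tested. In the other 46 main comparisons of settings, and in 24 for single members and lists, the value moved by less than its interval or 1.5-fold, while 32 of the latter kind moved by more. Some of the unmoved values could not move, because the 6 cells of CT-LCG included 0 with PECAM1 and 0 with the highest doublet scores. Intervals from so few cells are also wide, and a CT-LCG ACTA2 share of 20.0% in thinned cells, against 50.0%, counted as unmoved. In all 6 clusterings the mean of both libraries was highest in the fibroblast-like cluster for the 7 members, although in CT-LCG alone RGS16 was higher in the T cell-like and ADAMTS4 in the endothelial-like cluster, and the cluster held 83.3% of the 24 cells. With the minimum of 50 UMIs set on the other cells, an alternative also chosen after seeing the data, 598 and 331 genes were at least 4-fold higher. With 24 cells, the depth limits every share. No paired analysis was possible because each fibre type had 1 library and no test was run.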
